A study of Mus musculus with 31 samples.

Results

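The SLAM (signalling lymphocytic activation molecule) receptor family was followed across 9 sorted blood-forming populations of mouse bone marrow. Its members were found by gene symbol in the array's probe annotation, which gave Slamf1, Cd48, Slamf6, Slamf7, Slamf8, Slamf9, Cd84 and Ly9. These are 8 of the 19938 genes measured, and each had 1 probe. SLAM receptors are cell-surface proteins of the immunoglobulin superfamily, and most of them bind a copy of themselves on a neighbouring blood cell. Their cytoplasmic tails carry tyrosine motifs that recruit the small adaptors SAP and EAT-2, which bring in kinases such as Fyn, or phosphatases such as SHP-1 when the adaptors are missing. In the bone marrow, the surface proteins of Slamf1 (CD150) and Cd48 are best known as the antigens with which stem cells are told from their first progeny.

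All cells came from wild-type C57BL/6 mice, and the labels give no age, sex or treatment. Cells without lineage markers that carried cKit and Sca1 gave the first 5 populations. Long-term stem cells (LT-HSC, 4 arrays) were Flk2-, CD48- and CD150+, short-term stem cells (ST-HSC, 3 arrays) lacked all of Flk2, CD48 and CD150, and 2 multipotent progenitors were Flk2- and CD48+, with CD150 in MPP2 (3 arrays) and without it in MPP3 (3 arrays). The remaining gates did not use the family. MPP4 (5 arrays) was Flk2+, common myeloid progenitors (CMP, 3 arrays) were cKit+ and CD34+ without the Fc gamma receptor, and granulocyte-macrophage progenitors (GMP, 4 arrays) were the same with the Fc gamma receptor. Pre-granulocytes (PreGr, 3 arrays) were Mac1+ with intermediate Gr1, and granulocytes (Gr, 3 arrays) were Mac1+ with high Gr1, both without a lineage exclusion in the labels. Each sample held 20000 cells, replicates are described as biological, and the labels do not say whether mice were pooled. Where the 2 gates of a comparison treat CD150 or CD48 differently, that gene is described and was not tested, since the sort itself selected on its protein.

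Values are log2 intensities brought to a common distribution over the 31 arrays, so that a difference of 1 is a doubling. They compare 1 gene between populations and not 1 gene with another. The 25th percentile of all values was 6.37 and the median 7.34, and no detection call exists for these arrays. The arrays fell into 5 sets by their deposited medians, which ran from 6.19 to 7.83, and by values shared exactly between arrays. LT-HSC 1 to 3 formed a set of their own, so with the set as a block every comparison with LT-HSC rested on LT-HSC 4. ST-HSC and MPP2 share no set with LT-HSC 4, so their comparisons with LT-HSC were also chained through MPP3 3. In that fit GMP against CMP, which share no set, rested on GMP 4 and was chained through MPP4. MPP4 against MPP3 rested on MPP3 3 and the MPP4 arrays of its set. The set that holds LT-HSC 4, MPP3 3 and GMP 4 had the lowest estimated array weights, 0.189 to 0.38, against 0.505 or more elsewhere. Granulocyte markers had a summed linear level of 92151 to 102030 in Gr and 953 to 1261 in LT-HSC, and stem cell markers 1376 to 1490 in Gr and 11723 to 14858 in LT-HSC.

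Ly9, Slamf7, Cd48, Slamf1, Cd84 and Slamf6 lie next to each other in that order on chromosome 1, with Cd244a, which encodes the CD48 receptor 2B4, just before Ly9. The sequences upstream of 4 of these neighbours are shown because their genes had the widest ranges of population means in the family. Each is 240 bases upstream of 1 transcript start, on the strand of the gene, from RefSeq on GRCm38.p6. The windows of Slamf1 and Cd84 end just before the gene's annotated span, while those of Slamf7 and Cd48 lie inside it and so do not precede its outermost start. Capitals mark TGTGGT, the core word of RUNX binding sites, searched on both strands as TGTGGT and ACCACA.
Slamf7 (chr1:171649010-171649249, minus strand): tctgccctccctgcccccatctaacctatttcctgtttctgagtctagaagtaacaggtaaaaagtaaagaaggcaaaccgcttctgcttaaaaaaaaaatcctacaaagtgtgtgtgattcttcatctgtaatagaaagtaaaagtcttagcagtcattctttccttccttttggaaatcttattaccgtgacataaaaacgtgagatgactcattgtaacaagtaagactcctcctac
Cd48 (chr1:171681742-171681981, plus strand): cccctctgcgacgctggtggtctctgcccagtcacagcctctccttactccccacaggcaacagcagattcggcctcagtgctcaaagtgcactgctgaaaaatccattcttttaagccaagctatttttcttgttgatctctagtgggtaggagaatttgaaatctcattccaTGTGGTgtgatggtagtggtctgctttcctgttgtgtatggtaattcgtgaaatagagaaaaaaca
Slamf1 (chr1:171766882-171767121, plus strand): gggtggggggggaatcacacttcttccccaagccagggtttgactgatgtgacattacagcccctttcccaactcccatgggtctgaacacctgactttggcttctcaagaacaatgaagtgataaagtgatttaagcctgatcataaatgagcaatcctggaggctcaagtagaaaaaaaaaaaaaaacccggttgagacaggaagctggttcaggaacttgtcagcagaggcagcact
Cd84 (chr1:171839447-171839686, plus strand): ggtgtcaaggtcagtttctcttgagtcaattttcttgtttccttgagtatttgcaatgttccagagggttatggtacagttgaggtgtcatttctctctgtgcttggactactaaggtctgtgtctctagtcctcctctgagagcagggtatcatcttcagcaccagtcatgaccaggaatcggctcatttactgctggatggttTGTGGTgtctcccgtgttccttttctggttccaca
Of the 7 members with an entry, Cd48 and Cd84 held 1 TGTGGT each, and 13.6% of 32851 windows of this length held at least 1. AGATAA, the GATA word (other strand TTATCT), was in none of the 7 and in 9.74% of windows. GGAAGT, an ETS word (other strand ACTTCC), was in Slamf9 and Slamf8 alone and in 18.7% of windows. A match is a description of the letters and not a binding site.

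Slamf1 encodes CD150, a receptor that binds itself. Its values were 9.05, 9.17, 8.82 and 7.83 in LT-HSC, and 5.34, 4.68 and 5.13 in ST-HSC, where the gate removed the protein. They were 6.74, 6.47 and 7.27 in MPP2 and 5.74, 5.35 and 5.70 in MPP3. The RNA therefore followed the CD150 gates, with no overlap between the populations gated for CD150 and those gated against it. The difference of ST-HSC from LT-HSC was -3.66 ± 0.24 (SE), a 12.7-fold lower level, and that of MPP2 from MPP3 was 1.23 ± 0.26; neither was tested. Both LT-HSC and MPP2 were gated for CD150, and Slamf1 fell by 1.89 ± 0.24 in MPP2 (adjusted p = 2.73e-06), with no overlap. With the set as a block the change was -0.84 ± 0.41 and was not called; LT-HSC 4, at 7.83, was the lowest of the LT-HSC arrays.

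Outside the CD150 gates Slamf1 had 1 further peak. Its values were 5.78, 5.13, 5.44, 5.50 and 5.51 in MPP4, then 6.89, 7.39 and 7.46 in CMP, and 4.83, 5.00, 5.11 and 5.54 in GMP. All CMP arrays were above all MPP4 and all GMP arrays. Slamf1 rose by 1.78 ± 0.23 from MPP4 to CMP (adjusted p = 1.48e-05) and fell by 2.13 ± 0.24 from CMP to GMP (adjusted p = 3.92e-07). Both calls were made again with the set as a block, at 1.80 ± 0.20 and -1.76 ± 0.36. Bulk samples cannot tell fewer cells of a type from less RNA per cell. Megakaryocyte markers moved with Slamf1 here: 5 of 8 rose from MPP4 to CMP and 6 of 8 fell from CMP to GMP. Erythroid markers did too, with 3 of 7 higher and then 5 of 7 lower. Granulocyte-monocyte progenitor markers rose at both steps, 7 and then 6 of 10. Of all genes, 5.1% and 11.7% were called at these steps in either direction. The part of these markers in the Slamf1 result was not tested. In PreGr (4.98, 5.00 and 4.66) and Gr (5.21, 5.05 and 4.93) Slamf1 lay at the bottom of its range. By population means the order was LT-HSC, CMP, MPP2, MPP3, MPP4, GMP, Gr, ST-HSC and PreGr; from MPP3 downwards each neighbouring pair overlapped, and so did CMP and MPP2.

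Cd48 encodes a lipid-anchored protein without a signalling tail, the ligand of 2B4 and CD2. Its values were 6.58, 6.66, 6.37 and 7.58 in LT-HSC and 6.01, 7.35 and 7.18 in ST-HSC, both gated against CD48. They were 10.29, 9.83 and 9.19 in MPP2 and 10.27, 10.54 and 10.50 in MPP3, both gated for it. The RNA was thus apart between the CD48- and CD48+ gates without overlap, by 3.64 ± 0.37 (12.5-fold) between MPP3 and LT-HSC, which was not tested. Between the gates that treat CD48 alike no call was made: ST-HSC and LT-HSC differed by 0.05 ± 0.37 (adjusted p = 0.935), and MPP2 and MPP3 by -0.67 ± 0.39 (adjusted p = 0.612).

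Among populations whose gates ignore CD48, the level was high until the last step. It was 9.85, 9.73, 10.00, 10.40 and 10.04 in MPP4, 10.63, 10.28 and 10.58 in CMP, and 10.67, 10.46, 10.48 and 10.63 in GMP. PreGr were highest, at 10.78, 10.75 and 11.12, and Gr spread widely, at 10.20, 8.47 and 7.78. Every Gr array was below every PreGr array. Cd48 fell by 2.06 ± 0.39 from PreGr to Gr (adjusted p = 2.47e-04), a 4.18-fold change. Monocyte and macrophage markers moved the same way, with 9 of 14 lower in Gr, beside 11.2% of all genes. Their summed level was 14155 to 18223 in PreGr and 5501 to 9854 in Gr. Granulocyte-monocyte progenitor markers also fell, with 7 of 10 lower and 1 higher. The Gr array highest for Cd48 was highest for the monocyte receptor gene Ccr2 (10.25, against 9.12 and 8.53 in Gr 2 and 3). It was also highest for Mpo (11.68, against 11.03 and 10.23). Over the 31 arrays Cd48 correlated with Ccr2 at 0.60 and with Mpo at 0.92. Mpo was the closest of 6010 genes to Cd48 by population means, so its correlation was high by selection. Both correlations include the populations gated on CD48. The part of these markers in the fall was not tested.

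**Figure D1:**
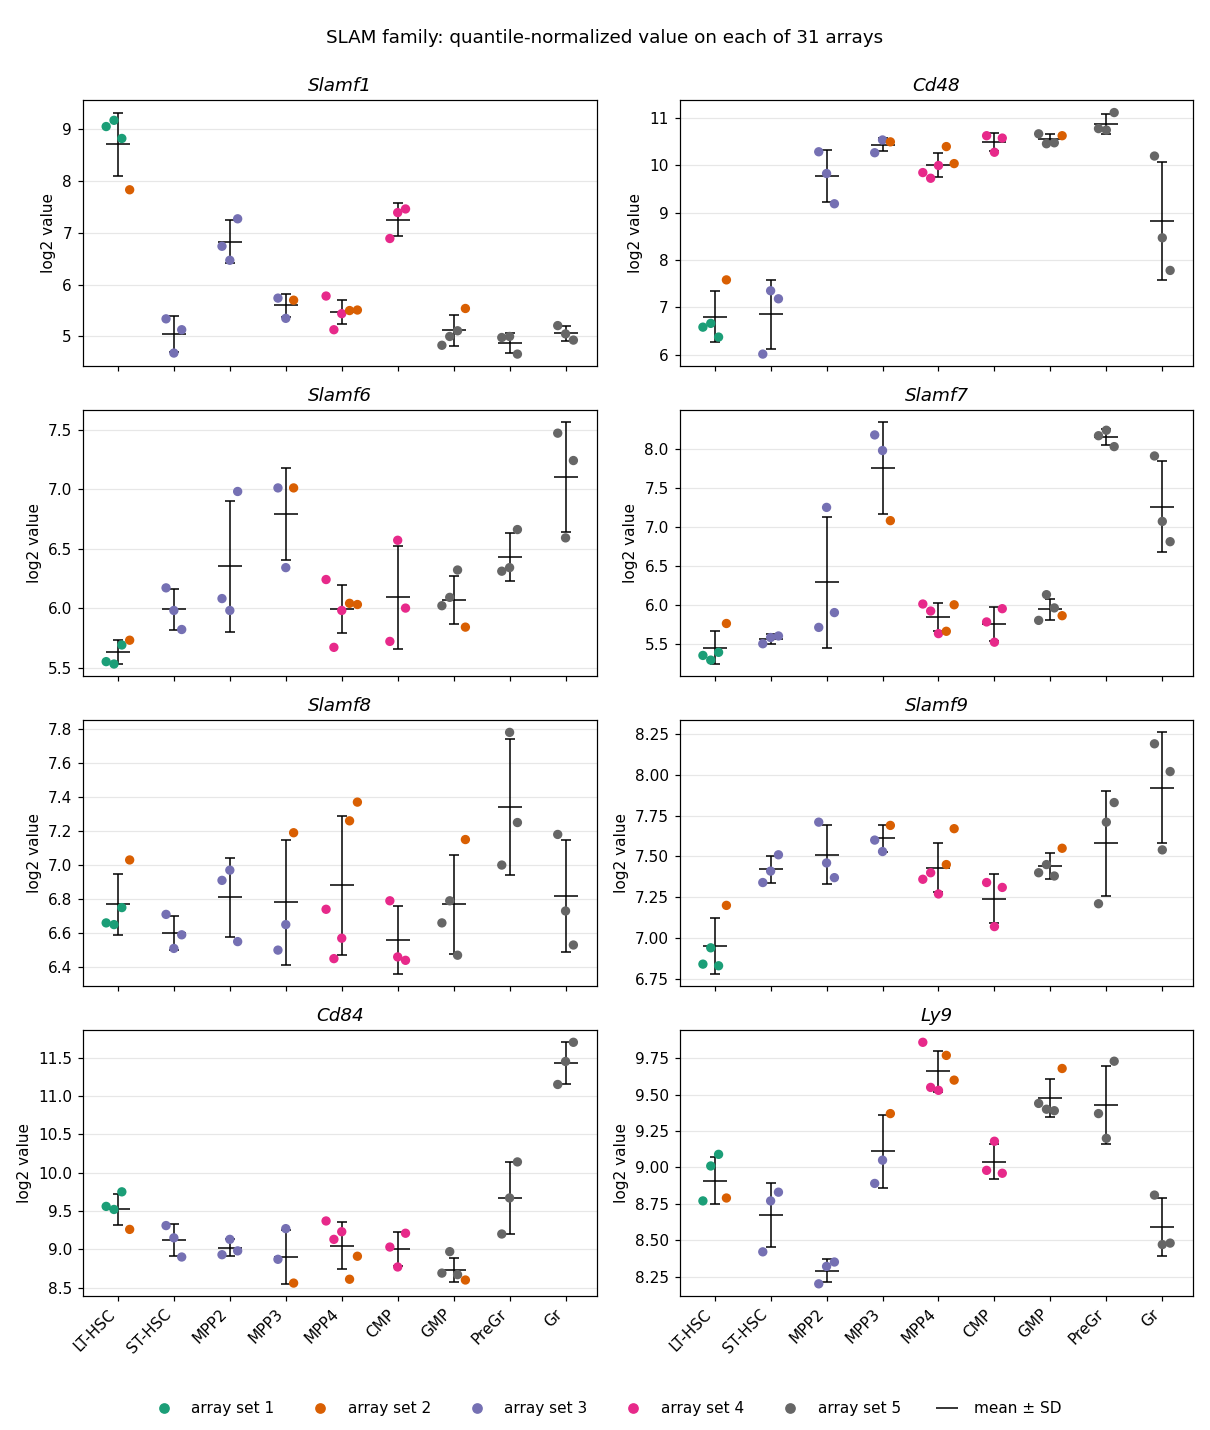
Quantile-normalized log2 value (vertical axis) of each family member on each of the 31 arrays, by population (horizontal axis); points are arrays coloured by array set, and black bars are the mean and SD. Slamf1 was highest in LT-HSC (7.83 to 9.17), Cd48 had its lowest means in both stem cell populations, Slamf7 was high in MPP3, PreGr and Gr, and Cd84 was highest in Gr (11.15 to 11.70).

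Slamf7 encodes CD319 (CRACC), a self-binding receptor that signals through EAT-2 and is a known surface marker of plasma cells and natural killer cells. It was near its lowest in LT-HSC (5.35, 5.29, 5.39 and 5.76) and ST-HSC (5.50, 5.58 and 5.60). In MPP3 it was 8.18, 7.98 and 7.08, with no overlap with either. Slamf7 rose by 2.30 ± 0.27 from LT-HSC to MPP3 (4.92-fold, adjusted p = 1.17e-06) and by 2.18 ± 0.29 from ST-HSC to MPP3 (adjusted p = 1.55e-05). With the set as a block these became 1.32 ± 0.47, which was not called, and 2.52 ± 0.30, which was. MPP2 split, at 5.71, 7.25 and 5.90. The call of Slamf7 in MPP2 against LT-HSC, a rise of 0.84 ± 0.27 (adjusted p = 0.0164), ended without MPP2 2, at 0.36, and turned with the set as a block, at -0.47 ± 0.56. Slamf7 was lower in MPP2 than in MPP3 by a change of -1.46 ± 0.29 (adjusted p = 0.00809), although MPP2 2 lay above MPP3 3. The set block gave -1.79 ± 0.30, also called. The arrays inside 1 set give that estimate by construction, and it was not called there (-1.79 ± 0.39). Without MPP2 1 or MPP3 1 the fit without a block gave an adjusted p of 0.0881 or 0.0703.

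The level was low again in MPP4 (6.01, 5.92, 5.63, 5.66 and 6.00), CMP (5.78, 5.52 and 5.95) and GMP (5.80, 6.13, 5.96 and 5.86). It was high in PreGr (8.17, 8.24 and 8.03) and lower in Gr (7.91, 7.07 and 6.81). MPP3 and MPP4 did not overlap, nor did GMP and PreGr, nor PreGr and Gr. Slamf7 fell by 1.90 ± 0.26 from MPP3 to MPP4 (adjusted p = 5.74e-05), but by 1.25 ± 0.41 and without a call when the set was a block. It rose by 2.21 ± 0.27 from GMP to PreGr (adjusted p = 4.72e-07), with the same call inside 1 array set (2.19 ± 0.23). The fall of 0.88 ± 0.29 from PreGr to Gr (adjusted p = 0.0294) was lost when any of PreGr 1, PreGr 2, Gr 2 or Gr 3 was left out, with adjusted p from 0.0733 to 0.219.

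The Slamf7 pattern ran beside that of Jchain, which encodes the joining chain of secreted antibodies. Jchain was 11.31, 11.53 and 10.85 in MPP3, and 5.70, 11.19 and 6.72 in MPP2, where MPP2 2 was also the array high for Slamf7. It was 9.62, 10.61 and 9.18 in PreGr, 9.92, 9.36 and 7.07 in Gr, and 4.28 to 5.58 on all arrays of the other 5 populations. Over the 31 arrays, which share sets and populations, the correlation of Slamf7 with Jchain was 0.92. With Igha and Pou2af1, also on the B and plasma cell list, it was 0.78 and 0.7, and with Ccr2 it was 0.54. Of 13 B and plasma cell markers measured, 8 rose and 0 fell from LT-HSC to MPP3, beside 27.5% of all genes called in either direction. Their summed level was 7078 to 9357 in MPP3, 1798 to 2071 in LT-HSC and 2243 to 5349 in MPP2. The set block called 5 of the 13 higher, beside 6.65% of all genes in either direction. Of 16 T and natural killer cell markers 7 rose and 2 fell in this step, and the set block called 3 higher and 0 lower. Cd79a, a B cell receptor chain gene, was 7.03, 7.63 and 7.03 in MPP3 against 4.97 to 5.62 in LT-HSC. Ebf1, a B cell transcription factor gene, was 8.16, 5.84 and 7.38 against 5.54 to 5.82, and Ms4a1, the CD20 gene, 5.26 to 5.64 against 4.99 to 5.09; the first 2 of these were called and Ms4a1 was not. The part of these markers in the Slamf7 differences was not tested.

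**Figure D2:**
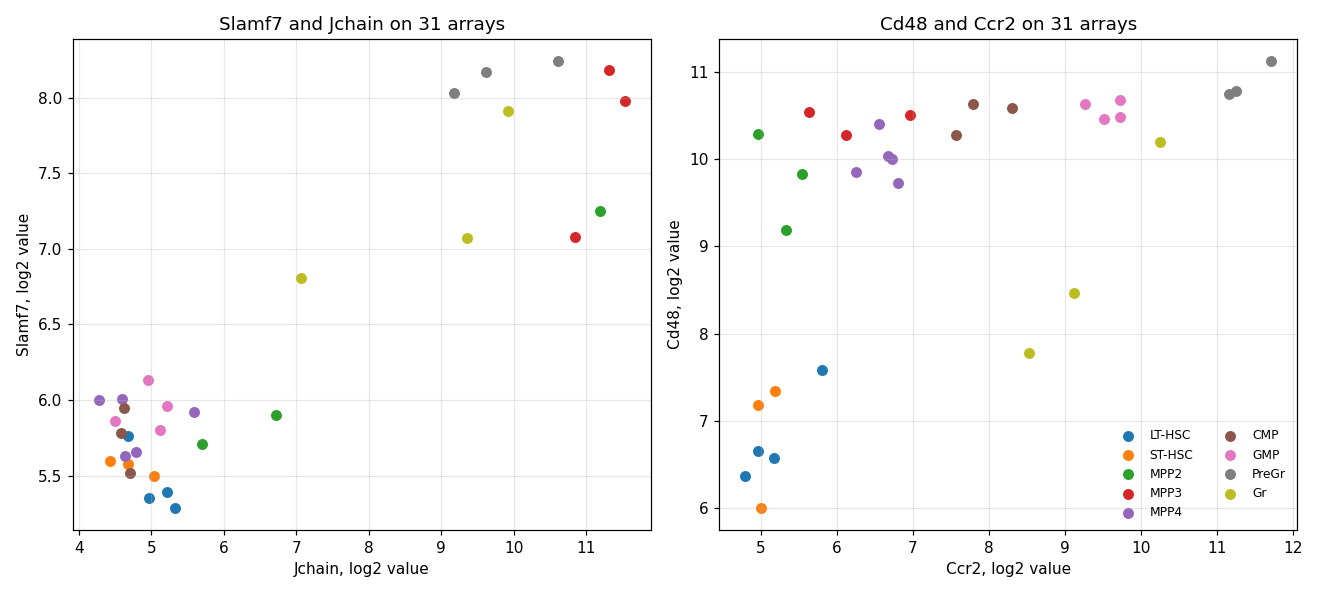
Slamf7 against Jchain (left) and Cd48 against Ccr2 (right), each point 1 of 31 arrays, both axes in quantile-normalized log2 values, coloured by population. The MPP3, PreGr and Gr arrays and MPP2 2 lie above all other arrays for Slamf7 in the left panel, and in the right panel the 3 Gr arrays run from low to high in both genes.

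Cd84 encodes a self-binding receptor (SLAMF5) of platelets and myeloid and lymphoid cells. Its values were 11.15, 11.45 and 11.70 in Gr, 9.20, 9.67 and 10.14 in PreGr and 8.69, 8.97, 8.67 and 8.60 in GMP. The 3 populations did not overlap, and Cd84 rose at both steps, by 0.93 ± 0.20 from GMP to PreGr (adjusted p = 8.78e-04) and by 1.76 ± 0.21 from PreGr to Gr (adjusted p = 3.96e-07). With the set as a block the steps were 0.89 ± 0.18 and 1.76 ± 0.18, both called. The block cannot change the second estimate, since all PreGr and Gr arrays share a set. Granulocyte markers moved with it. In PreGr 12 of 12 were higher than in GMP, beside 7.07% of all genes. In Gr 7 of 12 were higher than in PreGr, beside 8.12%. Among the 12 are Ly6g and Itgam, genes of the sort antigens Gr1 and Mac1. The part of these markers in the rises of Cd84 was not tested.

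In the stem and progenitor populations Cd84 varied less. LT-HSC were at 9.56, 9.52, 9.75 and 9.26, and the means of ST-HSC, MPP2, MPP3, MPP4 and CMP were 9.12, 9.02, 8.90, 9.05 and 9.0. Cd84 fell from LT-HSC to MPP2 by 0.51 ± 0.20 (adjusted p = 0.0430), to MPP3 by 0.62 ± 0.20 (adjusted p = 0.0195) and to MPP4 by 0.48 ± 0.17 (adjusted p = 0.0435). These comparisons share the LT-HSC arrays. The set block gave changes as large, at -0.75 ± 0.38, -0.70 ± 0.32 and -0.50 ± 0.28, and none was called. Each call was also lost on leaving out single arrays: any of 6 arrays in MPP2 against LT-HSC and in MPP4 against LT-HSC, and LT-HSC 3, MPP3 1 or MPP3 3 in MPP3 against LT-HSC (adjusted p 0.0527 to 0.149 over all of these). In MPP4 against LT-HSC the replicate block also ended it, at -0.44.

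Ly9 encodes SLAMF3 (CD229), a self-binding receptor of lymphocytes. It was highest in MPP4, at 9.86, 9.55, 9.53, 9.77 and 9.60, and in GMP, at 9.44, 9.40, 9.39 and 9.68. LT-HSC were at 8.77, 9.01, 9.09 and 8.79, with no overlap with MPP4. Ly9 rose by 0.75 ± 0.12 from LT-HSC to MPP4 (adjusted p = 6.46e-05), and by 0.90 ± 0.20 with the set as a block, also called. Of the members tested in the comparisons with LT-HSC, this was the only change called in both fits. Lymphoid progenitor markers had their highest summed level in MPP4, 6332 to 11100, against 1117 to 1237 in LT-HSC. Among these markers is Flt3, the gene of the sort antigen Flk2. MPP4 was gated for Flk2 and LT-HSC against it, so the sort itself selected on part of this contrast. Elsewhere the markers followed Ly9 in part. MPP3, above MPP2 for Ly9, had 2982 to 4052 against 1054 to 1383. GMP, next highest for Ly9, had 1670 to 1747, while CMP, lower for Ly9, had 3013 to 3496. Their part in the Ly9 differences was not tested.

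MPP2 had the lowest Ly9 values, 8.20, 8.32 and 8.35, below LT-HSC and below MPP3 at 8.89, 9.05 and 9.37. From LT-HSC to MPP2 Ly9 fell by 0.62 ± 0.14 (adjusted p = 0.00101), while the set block left -0.09 ± 0.28 and no call. Ly9 was lower in MPP2 than in MPP3 by a change of -0.81 ± 0.15 (adjusted p = 0.00335). It was called with the set as a block (-0.68 ± 0.15). The arrays inside the 1 set that holds both give that estimate by construction, and it was not called there (-0.68 ± 0.14, adjusted p = 0.196). MPP4 was above MPP3 by 0.56 ± 0.13 (adjusted p = 0.0222), a call lost with the set as a block (0.31 ± 0.20) and without MPP3 1, MPP3 2 or MPP4 1 (adjusted p 0.0695 to 0.183). Ly9 fell from MPP4 to CMP (8.98, 9.18 and 8.96) by 0.62 ± 0.13 (adjusted p = 0.00437), and by 0.61 ± 0.12 inside 1 set, also called. That call needs the full common scale: with array medians aligned instead, the change was -0.27 and was not called. From CMP to GMP, Ly9 rose by 0.44 ± 0.14 (adjusted p = 0.0344), a call that the set block ended at 0.60 ± 0.24 and that was lost without CMP 1, CMP 3, GMP 1 or GMP 4 (adjusted p 0.0582 to 0.131). PreGr, at 9.37, 9.20 and 9.73, were above Gr, at 8.81, 8.47 and 8.48, and Ly9 fell between them by 0.85 ± 0.15 (adjusted p = 7.87e-05).

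Slamf6 encodes Ly108, a self-binding receptor known from T and natural killer cells. It was lowest in LT-HSC, at 5.53 to 5.73, and highest in Gr, at 7.47, 6.59 and 7.24. MPP3 stood at 7.01, 6.34 and 7.01, above every LT-HSC array, and Slamf6 rose between them by 1.16 ± 0.22 (adjusted p = 5.08e-04). The set block left 1.28 ± 0.43 and no call. Slamf6 was 5.82 to 6.17 in ST-HSC, 5.67 to 6.24 in MPP4, 5.72 to 6.57 in CMP and 5.84 to 6.32 in GMP. Of these, MPP4 and CMP overlapped with LT-HSC, and CMP also with MPP3. From LT-HSC to MPP2 Slamf6 rose by 0.72 ± 0.22 (adjusted p = 0.0139), a call that was lost without MPP2 3, the array at 6.98. PreGr, at 6.31, 6.34 and 6.66, overlapped with Gr. From PreGr to Gr Slamf6 rose by 0.67 ± 0.24 (adjusted p = 0.0492), and without PreGr 1, PreGr 2, Gr 1 or Gr 3 it did not pass (adjusted p 0.149 to 0.239). Slamf6 correlated with Ms4a1 at 0.70 over the 31 arrays, and Gr had the highest mean of both. From PreGr to Gr, 3 of 13 B and plasma cell markers rose and 0 fell, beside 8.12% and 11.2% of all genes. Their median change was 0.35. The T and natural killer cell markers did not move as 1 group between PreGr and Gr, with 2 of 16 higher and 4 lower in Gr and a median change of -0.12. Cd3d was 11.98 to 12.50 in Gr and 5.32 to 6.49 in all populations other than Gr and PreGr, while Cd4 was 6.93 to 7.0 in Gr, inside the 6.57 to 7.18 of those populations. The part of these markers in the Slamf6 difference was not tested.

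Slamf8 and Slamf9 encode members with short tails that lack the tyrosine motifs, and both had the smallest ranges of the family. Slamf8, known from macrophages, spanned 0.78 between its lowest and highest population mean. It was highest in PreGr, at 7.0, 7.78 and 7.25, which overlapped with GMP at 6.66, 6.79, 6.47 and 7.15, and its difference from GMP, 0.57 ± 0.22, did not pass (adjusted p = 0.0737). With the set as a block it was 0.70 ± 0.17 and called. The arrays inside 1 set give that estimate by construction, and it was called there too (0.70 ± 0.21). Slamf9 spanned 0.97, from 6.83 to 7.20 in LT-HSC to 7.54 to 8.19 in Gr. It rose from LT-HSC to ST-HSC by 0.47 ± 0.14, to MPP2 by 0.56 ± 0.14, to MPP3 by 0.65 ± 0.14 and to MPP4 by 0.48 ± 0.12 (adjusted p = 0.0188, 0.0034, 0.00154 and 0.00658). In each, the LT-HSC arrays lay below all others without overlap. These comparisons share the LT-HSC arrays. The set block left rises of 0.34 ± 0.30, 0.43 ± 0.30, 0.48 ± 0.25 and 0.36 ± 0.22, and none was called. The call in ST-HSC was also lost without LT-HSC 1, LT-HSC 3 or ST-HSC 3.

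Counted by comparison, the members called stood beside large shares of all genes in the steps out of LT-HSC, which share the LT-HSC arrays. From LT-HSC to MPP2, 6 of 7 tested members were called, beside 36.1% of all genes, and to MPP3 4 of 6, beside 27.5%. From LT-HSC to MPP4 it was 3 of 6, beside 24.7%, and to ST-HSC 1 of 7, beside 22.8%. With the set as a block the call was left to Ly9 in MPP4 alone: 0 members were called in MPP2 (beside 8.16% of all genes), 0 in MPP3 (6.65%), 1 in MPP4 (2.74%) and 0 in ST-HSC (1.47%). At an unadjusted limma p under 0.05, that fit had 0, 4, 1 and 1 members in these populations.

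Among the early progenitors, which share arrays with one another, Slamf7 and Ly9 were the members called. MPP3 against ST-HSC gave 1 of 7 members (Slamf7), beside 3.15% of all genes, and 1 with the set as a block, beside 3.12%. MPP2 against MPP3 gave Slamf7 and Ly9 of 7 tested, beside 0.963%, and both again with the set as a block (1.06%), but neither inside 1 set (0.201%). MPP4 against MPP3 gave Slamf7 and Ly9 of 6 tested, beside 1.56%, and 0 with the set as a block (1.16%), where 2 members were under an unadjusted 0.05. MPP2 against ST-HSC gave 0 of 6, beside 6.58%, and 0 with the set as a block (10.8%), with 2 members, Ly9 and Slamf7, at an unadjusted limma p under 0.05 in each fit.

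Along the myeloid steps Slamf1 and Ly9 were called from MPP4 to CMP and from CMP to GMP. Slamf7 and Cd84 were called from GMP to PreGr, and Cd48, Cd84, Ly9, Slamf7 and Slamf6 from PreGr to Gr. From MPP4 to CMP 2 of 8 were called, beside 5.1% of all genes, 2 with the set as a block (7.23%), and inside 1 set (9.07%) Cd48 was called besides, at 0.63 ± 0.12. From CMP to GMP 2 of 8 were called, beside 11.7%, and 1 with the set as a block (1.32%). From GMP to PreGr 2 of 8 were called, beside 16.6%, and with Slamf8 there were 3 both with the set as a block (19.0%) and inside 1 set (20.3%). From PreGr to Gr 5 of 8 were called, beside 19.3%, and 6 with the set as a block (26.5%), which added a fall of Slamf8. The median change over the 8 members was 0.35 from GMP to PreGr and -0.17 from PreGr to Gr, against -0.02 and 0.02 over all genes.

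**Figure D3:**
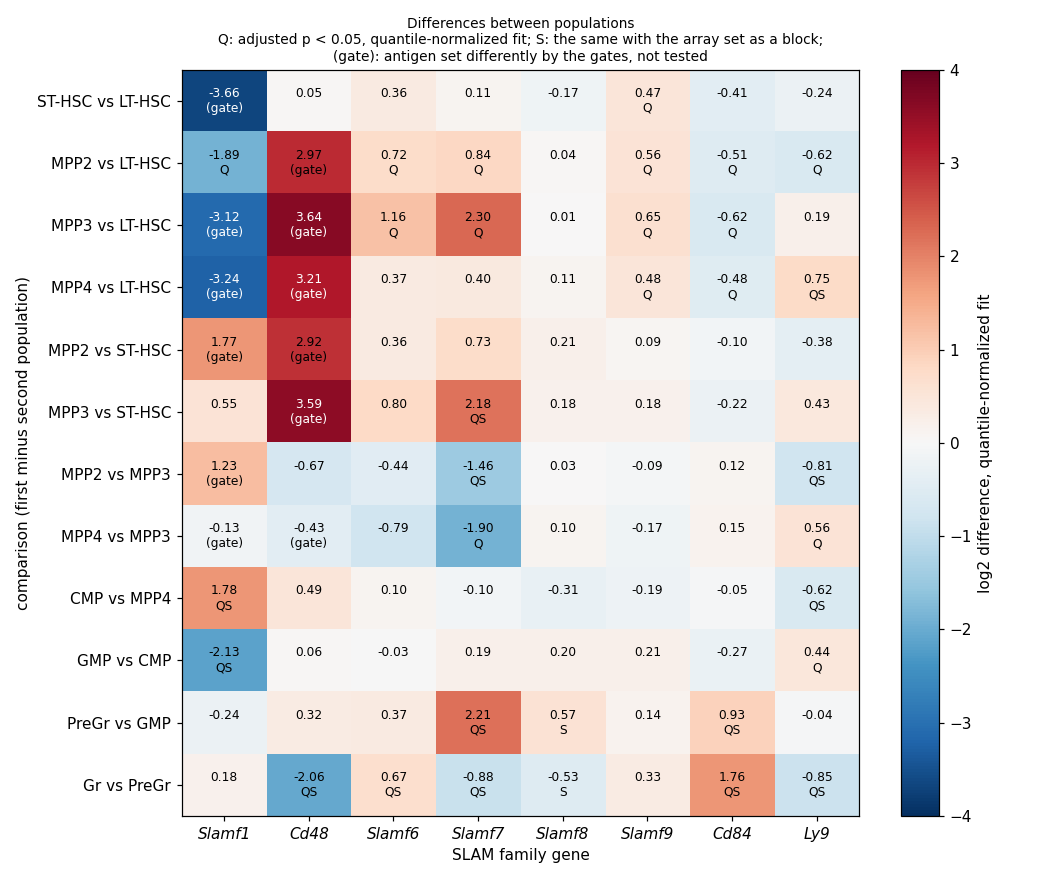
log2 difference (first minus second population, colour and number) of each member (columns) in each of 12 comparisons (rows). Q marks an adjusted p under 0.05 in the quantile-normalized fit, S the same with the array set as a block, and (gate) a gene whose antigen the gates set differently; the S marks are nearly absent from the rows against LT-HSC, where only Ly9 in MPP4 has one, and frequent in the PreGr and Gr rows.

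Of 22 partner and signalling genes listed, 19 were measured. Cd244a, the gene of the CD48 receptor 2B4, was 7.02, 7.0, 6.85 and 7.11 in LT-HSC, 8.81, 8.52 and 8.45 in MPP3 and 9.0, 9.17, 8.89, 8.43 and 8.87 in MPP4, without overlap between LT-HSC and the other 2. It rose by 1.59 ± 0.17 from LT-HSC to MPP3 (adjusted p = 1.80e-07) and by 1.88 ± 0.15 to MPP4 (adjusted p = 6.35e-10), and with the set as a block by 1.34 ± 0.29 and 1.54 ± 0.25, both called. It also rose by 1.10 ± 0.18 from ST-HSC to MPP3. From CMP to GMP it fell by 1.03 ± 0.17, and the set block gave -0.83 ± 0.30, which was not called. Against LT-HSC, 1 of the 19 rose and 3 fell in ST-HSC, 1 and 2 in MPP3, and 2 and 3 in MPP4, beside 22.8%, 27.5% and 24.7% of all genes called in either direction. In MPP2 1 rose and 7 fell, beside 17.3% and 18.8% of all genes. In the set block fit limma called 0 of the 19 in ST-HSC and in MPP2, where 1 and 2 were under an unadjusted p of 0.05, and 1, Cd244a, in MPP3 and in MPP4.

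Fyn, the kinase that SAP brings to the receptors, and Prkcq, the protein kinase C theta that acts below it, fell together from CMP to GMP. Fyn was 8.92, 9.48 and 8.96 in CMP and 7.15, 7.04, 6.88 and 7.24 in GMP, and Prkcq was 8.60, 8.74 and 8.58 and then 6.25, 6.40, 5.97 and 6.28. Neither overlapped. Fyn fell by 2.04 ± 0.20 (adjusted p = 2.88e-08) and Prkcq by 2.41 ± 0.20 (adjusted p = 1.38e-09). With the set as a block, where the comparison rested on GMP 4, the changes were -1.45 ± 0.35 and -1.80 ± 0.35. In the same step Sh2d1b2, a gene of the EAT-2 adaptor family, rose by 1.15 ± 0.22, but by 0.42 ± 0.32 and without a call when the set was a block. In all, 1 of the 19 rose and 4 fell, beside 5.44% and 6.21% of all genes, and the set block called Fyn and Prkcq alone. Sh2d1b1 and Sh2d1b2 are close paralogs, so their probes could share signal.

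From GMP to PreGr 7 of the 19 rose and 1 fell, beside 7.07% and 9.56% of all genes, and their median change was 0.44, against -0.02 over all genes. Fgr, a Src-family kinase of myeloid cells, went from 6.94 to 7.27 in GMP to 9.56 to 10.08 in PreGr, a rise of 2.80 ± 0.15 (adjusted p = 4.96e-14). Cd2, the other receptor of CD48, rose by 1.51 ± 0.20. Sh2d1a, the gene of SAP, rose by 0.78 ± 0.17 and Plcg2 by 0.78 ± 0.14, and Plcg1 fell by 0.64 ± 0.16. From PreGr to Gr 1 rose and 3 fell, beside 8.12% and 11.2% of all genes. Fgr rose again by 0.75 ± 0.16, while Fyn fell by 0.96 ± 0.21, Sh2d1a by 0.95 ± 0.18 and Sh2d1b2 by 0.64 ± 0.23. T and natural killer cell markers moved at both steps, with 6 of 16 higher in PreGr than in GMP, and 2 higher and 4 lower in Gr than in PreGr. Gzma was 5.76 to 6.09 in GMP, 9.44, 9.49 and 10.18 in PreGr and 7.27, 6.37 and 6.71 in Gr. The part of these markers in the rise of Cd2 and Sh2d1a and in the falls of Sh2d1a and Fyn was not tested.

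**Figure D4:**
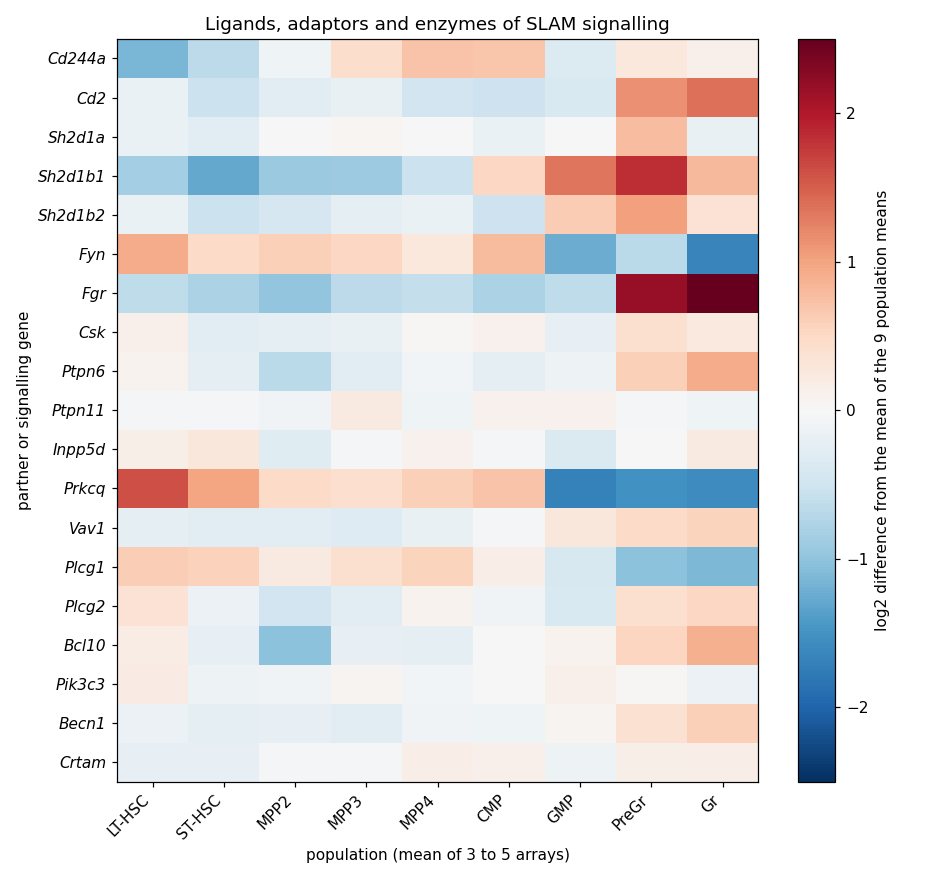
Population means (columns) of the 19 partner and signalling genes (rows), each as the log2 difference from the mean of its 9 population means. Cd244a is lowest in LT-HSC, Fyn and Prkcq drop between CMP and GMP, and Fgr is high in PreGr and Gr.

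For each member the 3 genes with the most similar pattern over the 9 population means were taken, from 6010 genes whose means ranged over at least 1. Slamf1 was closest to Myom1 (r = 0.96), P3h2 and Zfp82. Cd48 was closest to Mpo (r = 0.95), the myeloperoxidase gene, then Pclaf and Cep128. Slamf6 was closest to the B cell genes Fcrla, Vpreb3 and Ikzf3, and Slamf7 to Xcl1, Mir350 and Igkv4-91. Slamf8 was closest to Klra6, Sh2d1a and Klra3, and Slamf9 to Cd37, Obp1a and Aldh3b3. Cd84 was closest to Padi4 (r = 0.99), a neutrophil enzyme gene, then Fbxl5 and Nbeal2. Ly9 had the weakest best match, Tsr3 at 0.87, then Lair1 and Sting1. Within the family the highest correlation of means was 0.91, between Slamf6 and Slamf9, and the lowest -0.78, between Slamf1 and Slamf9. With 9 means, and arrays that share sets, these are descriptions of shape.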

How the data were processed

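The deposited values are on a log2 scale and the authors' software was RMA, per the submitters' processing notes; its version is not given in the sources used here. Of 35557 probes, 21789 pair with 1 gene in the platform annotation, and the brightest probe stood for each of 19938 genes. RNA was amplified before labelling, and the number of arrays limits the precision. Here the values were quantile-normalized over all 31 arrays and fitted with limma 3.58.1 in R 4.3.3, with 1 mean per population and 22 residual degrees of freedom. Calls are limma's two-sided moderated tests with p adjusted by Benjamini-Hochberg over all 19938 genes of a comparison, at a threshold of 0.05. The second fit added the array set as a blocking factor, leaving 18 degrees of freedom. Sets were found from deposited medians and from 2 or more identical values linking arrays, and the labels do not name them. Comparisons within 1 set used its arrays alone. Where 2 populations meet in 1 set only, that estimate equals the set block's, so the 2 differ only in the spread used. Where all their arrays share a set, the block cannot change the estimate. Replicate numbers were checked for pairing by residual correlations: in MPP4 against LT-HSC all 4 pairs exceeded 0.1 (0.126 to 0.271), and in no other comparison did every pair. Arrays with different numbers ran from -0.27 to 0.283 in that comparison, so the numbers do not establish pairing. Other alternatives were median alignment, cyclic loess, a replicate block, leaving out dim genes, all probes, array weights and leaving out each array. The fits were tested on simulated data.

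All members were named in every comparison, up to 4 called partner genes per comparison by size, markers by count, and the 3 most similar genes per member; the example markers Jchain, Ccr2, Ms4a1, Cd79a, Ebf1, Cd3d, Cd4 and Gzma were chosen after their values were seen. The members and gene lists were chosen with earlier results of these data known. Gene order and promoters came from RefSeq on GRCm38.p6; the array's build is not given in the sources used here. Plots used matplotlib 3.10.9 (Python 3.11.15).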

Additional observations from a re-analysis of the deposited data

How the results depend on the processing

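The number of members called was within 1.5 times the reported one under most alternatives. It moved to 0 in ST-HSC, MPP2 and MPP3 against LT-HSC and in MPP4 against MPP3, and to 1 in MPP4 against LT-HSC and GMP against CMP, with the array set as a block. With array medians aligned it was 4 in ST-HSC and 5 in MPP4 against LT-HSC, and 1 in MPP2 against MPP3, CMP against MPP4 and GMP against CMP; the median change of all genes in ST-HSC against LT-HSC was then -0.13, against -0.05 in the reported fit. With the set block that median was 0.09 in ST-HSC, 0.16 in MPP2 and 0.1 in MPP3 against LT-HSC, against -0.05, 0.0 and -0.01. With the replicate block it was 2 in ST-HSC against LT-HSC and 1 in GMP against CMP. In the latter the replicate block left Ly9 at 0.42 (adjusted p = 0.0524, and 0.00242 to 0.293 over its alternatives). In MPP4 against LT-HSC the replicate block ended the call of Cd84 and no other. Array weights gave 2 in ST-HSC against LT-HSC, and all probes gave 1 in GMP against CMP. Leaving out dim genes removed Slamf1, Slamf6 and Slamf7 and left 3 in MPP2 and 2 in MPP3 against LT-HSC, 0 in MPP3 against ST-HSC, 1 each in MPP2 and MPP4 against MPP3, CMP against MPP4, GMP against CMP and PreGr against GMP, and 3 in Gr against PreGr. Inside 1 set, MPP2 against MPP3 gave 0, where 2 members had an unadjusted limma p under 0.05. Leaving out each array in turn gave 0 to 1 in ST-HSC, 4 to 6 in MPP2, 3 to 4 in MPP3 and 2 to 3 in MPP4 against LT-HSC, 0 to 1 in MPP2 and 1 to 2 in MPP3 against ST-HSC, 1 to 2 in MPP2 and 1 to 3 in MPP4 against MPP3, 2 to 2 in CMP against MPP4, 1 to 2 in GMP against CMP, 2 to 3 in PreGr against GMP and 3 to 5 in Gr against PreGr. The 1 reversal was Slamf7 in MPP2 against LT-HSC, at -0.47 with the set block. The causes were not tested. Slamf1, Slamf6 and Slamf7 had means over all arrays below the 25th percentile of genes, where no detection call tells signal from background.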
